A study of Mus musculus with 6 samples.

Results

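The TNF ligand and receptor superfamily was followed by the 31 genes whose symbols begin with Tnfsf or Tnfrsf and a digit, out of 23282 entries in each count file. Of these, 11 encode ligands and 20 encode receptors. Members known by other symbols (Tnf, Ltb, Ltbr, Fas and others) were kept apart and are given after them. RNA came from 6 libraries labelled BMOL, a mouse liver progenitor cell line, all from the labelled tissue liver. Of these, 3 were labelled vector control and 3 TXNIP overexpressed, the latter treated with TXNIP-expressing constructs. TXNIP is the thioredoxin-interacting protein, an alpha-arrestin. The sources used here do not give the promoter of the construct, the time after its introduction, or whether replicates were separate cultures or clones. The p-values below weigh the group difference against the spread between these libraries, which may therefore be technical. The groups are called control libraries and TXNIP libraries, after their labels.

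TNF superfamily ligands are mostly trimeric type II membrane proteins, many of which can be cut from the cell surface. Their receptors carry cysteine-rich repeats outside the cell. Inside it, some bear a death domain and assemble caspase-activating complexes, while others recruit TRAF adaptors and lead to NF-kappaB. Decoy and soluble members bind ligand without such signalling. In the liver, TNF takes part in injury and regeneration, and TWEAK (Tnfsf12) acting on Fn14 (Tnfrsf12a) is known as a mitogen for liver progenitor cells. RANK (Tnfrsf11a) is the receptor that drives osteoclast formation from myeloid cells, and BAFF (Tnfsf13b) is a B cell survival factor made by myeloid cells.

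Levels are given as CPM, the counts of a gene per 1000000 counts of its library. Totals ran from 8725624 to 15119775 counts, so that 1 read stood for 0.0661 to 0.115 CPM. Reads came from the 3' end of each transcript, so levels carry no length correction, and counts of different genes still differ in how well their 3' ends are read. Txnip stood at 39.7, 9.84 and 10.9 CPM among the controls and at 209, 291 and 286 CPM in the TXNIP libraries (log2 fold change 3.82 ± 0.46 SE, edgeR adjusted p = 2.76e-05). Without control replicate 1 it was 4.71. Whether these reads came from the construct or from the endogenous gene cannot be told apart. Pearson correlations of log2(CPM + 1) across genes were 0.977 to 0.991 within groups and 0.613 to 0.636 between them. Replicate 1 stood apart in both groups, with a chi-square of counts per degree of freedom of 23.08 to 28.33 against the other replicates, which gave 6.396 and 6.505 between themselves.

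Cell type markers moved with the labels, and so with the group differences below. Of 18 macrophage and leukocyte markers, 13 were tested and all 13 rose. Their summed level was 74.3 to 96.1 CPM in the controls, mostly Cd14 and Csf1r, and 7118 to 7799 CPM in the TXNIP libraries. The Kupffer cell genes Clec4f, Marco, Timd4 and Vsig4 had no read in any library. Of 19 ductular and progenitor markers, 12 were tested, of which 11 fell and Spp1, also a macrophage gene, rose. Sox9 and Dsg2 had no read in the TXNIP libraries. Of 10 osteoclast markers, 8 rose and Itgb3 fell, with summed levels of 24.2 to 30.1 and 414.9 to 514.5 CPM. Calcr had no read. The 14 T, B and NK lymphocyte markers found in the files summed to at most 0.212 CPM in a control and 0.377 CPM in a TXNIP library, and none could be tested. Of 12 hepatocyte markers, 5 were tested and 4 fell. The 12 endothelial and stellate markers summed to at most 1.12 CPM in a control and 2.50 CPM in a TXNIP library, and none was tested. The part of these differences in the results below was not tested. In bulk RNA, a lower number of cells of a type and less of a transcript in each cell cannot be told apart. Krt18, Cdh1 and Cd24a had means of 529, 1161 and 367 CPM in the controls. In the TXNIP libraries they had 0.0314, 0.0943 and 0.0382 CPM. Itgam had no control read and 210 CPM in the TXNIP libraries, and Lyz2 went from 0.022 to 1575 CPM. Whether both groups hold the same cell line was not tested. Below, rose and fell compare libraries by label and do not mean a change within the same line.

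The ligand genes went both ways. Tnfsf15 and Tnfsf12 fell, Tnfsf9, Tnfsf13b and Tnfsf14 rose, and Tnfsf13 did not pass. Thus 5 of the 6 tested ligand genes changed, 3 higher and 2 lower, out of 11 ligand genes in all. Over all 12088 tested genes, 64.5% changed, 30.6% higher and 33.9% lower (edgeR's quasi-likelihood test, Benjamini-Hochberg adjustment, threshold 0.05). The other 5 ligand genes stood below 1 CPM in both groups and were not tested. A gene read in only 1 group passes the filter through that group. The counts of called ligand genes therefore do not say how often ligand genes change.

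Tnfsf15 encodes TL1A, a ligand of endothelial and other cells that costimulates lymphocytes through DR3. It had 37.1, 20.2 and 18.9 CPM in the controls. The TXNIP libraries held 0.229, 0 and 0.895 CPM, which were 2, 0 and 10 reads. The groups did not overlap, and its mean went from 25.4 ± 10.1 to 0.375 ± 0.465 CPM (SD, n = 3 each). The log2 fold change was -5.91 ± 0.60 (SE, edgeR adjusted p = 5.46e-06). It was -7.69 without TXNIP replicate 3, which held most of the remaining reads, and -5.30 without TXNIP replicate 2, which held none. Tnfsf12, the TWEAK gene, had 66.7, 37.2 and 40.9 CPM among the controls and 15.5, 23.5 and 19.1 CPM in the TXNIP libraries. All 3 controls stood above all TXNIP libraries, with control replicate 1 the highest. Its log2 fold change was -1.24 ± 0.24 (SE, edgeR adjusted p = 6.17e-04).

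Tnfsf13 encodes APRIL, a factor for B and plasma cells, and lies 0.7 kb from Tnfsf12 on the same strand of chromosome 11. It had 38.1, 20.9 and 28.6 CPM among the controls and 18.8, 16.3 and 24.9 CPM in the TXNIP libraries. The groups overlapped, and the difference did not pass (log2 fold change -0.47 ± 0.24 SE, edgeR adjusted p = 0.105). Without control replicate 2 it did (-0.66, adjusted p = 0.0313). The annotated read-through gene Tnfsfm13 spans both genes. In GENCODE M21 transcripts, all 75-base words in the last 500 bases of Tnfsf13 also occur in Tnfsfm13, and 0 to 72.0% of those of Tnfsf12 do, depending on the transcript. An antisense gene, Tnfsf13os, overlaps the same place, and the sources used here do not say whether counting used strand. How the reads were shared among these genes is therefore uncertain.

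Tnfsf9 encodes the ligand of CD137 (Tnfrsf9), found on activated antigen-presenting cells. It stood at 4.56, 10.5 and 7.28 CPM in the controls. In the TXNIP libraries it stood at 13.4, 87.2 and 87.4 CPM. Replicate 1 lay far below the other TXNIP libraries and not far above the highest control, and in the controls too replicate 1 was the lowest. The groups did not overlap, with a log2 fold change of 3.11 ± 0.58 (SE, edgeR adjusted p = 7.69e-04) and values from 2.81 to 3.58 on leaving out each library. Tnfsf13b, the BAFF gene, had 0.570, 0 and 0.0661 CPM in the controls, or 5, 0 and 1 reads, and 6.99, 10.2 and 8.95 CPM in the TXNIP libraries. Its log2 fold change was 5.69 ± 0.73 (SE, edgeR adjusted p = 2.27e-05). Without control replicate 1, which held 5 of the 6 control reads, it was 7.66, and without control replicate 2 it was 5.04.

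Tnfsf14 encodes LIGHT, which binds HVEM (Tnfrsf14) and the lymphotoxin beta receptor. It had no control read and 17, 15 and 13 reads in the TXNIP libraries, or 1.95, 1.41 and 1.16 CPM. Against a floor of 3 reads over the control group it was at least 19.1-fold higher (edgeR adjusted p = 3.99e-04). Of the ligands below 1 CPM, Tnfsf11 (RANKL), Tnfsf4 (OX40L) and Tnfsf8 (CD30L) had no read in any library. Tnfsf10 (TRAIL) had 1 read in the controls and 11 in the TXNIP libraries, none of them in replicate 3. The ratio of its pooled counts was 13.7, with an exact 95% interval of 1.99 to 590. Tnfsf18 (GITRL) had 3 reads, all in TXNIP replicate 1. These intervals and floors cover counting error only.

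**Figure D1:**
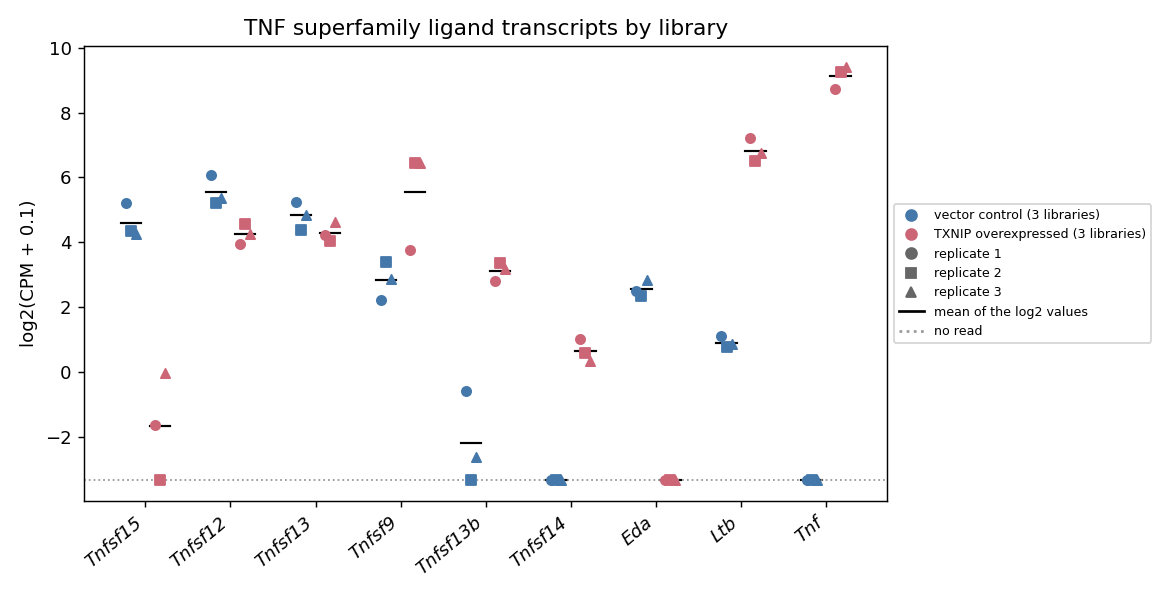
TNF superfamily ligand transcripts in each library, as log2(CPM + 0.1), for the 6 Tnfsf genes of at least 1 CPM in either group and for Eda, Ltb and Tnf; points are libraries with a shape per replicate, bars the mean of the log2 values, and the dotted line marks no read. Tnfsf15 lies on the line in TXNIP replicate 2 and above it in replicates 1 and 3 (0.229 and 0.895 CPM). Tnfsf14 and Tnf lie on the line in the controls, and Tnfsf9 of TXNIP replicate 1 (13.4 CPM) lies far below the other TXNIP libraries.

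Promoter sequences are shown for Tnfsf15 and Tnfsf14, which stood near 0 in 1 group, since presence against absence is what the counts record for them. Tnfsf13b is left out because all but 12 of the bases of its window lie within the annotated span of the gene. They are RefSeq sequences of build GRCm38.p6, the assembly of mm10, given 5' to 3' on the gene's strand and ending at the base before the annotated start. Capitals mark matches, on either strand, to 4 motifs: GGG followed by any 2 bases and TTTCC (NF-kappaB), TGANTCA (AP-1), CATTCC (TEAD) and GAGGAAGT (PU.1). N stands for any base, and no matches overlapped in the sequences printed. Of 32851 RefSeq promoter windows of the same 250 bases, 1.4%, 6.7%, 12.6% and 2.4% held a match to each in turn. Tnfsf15 (chr4:63745060-63745309, minus strand) held 1 match to the TEAD motif, starting at -140. Tnfsf14 (chr17:57194182-57194431, minus strand) held 1 match to the AP-1 motif, starting at -160 from the RefSeq start. The bases just after that start were not found in the GENCODE M21 transcript of Tnfsf14, so its start differs between the annotations. For the other printed promoters they were found in a transcript of the gene. A match describes the letters only.
Tnfsf15: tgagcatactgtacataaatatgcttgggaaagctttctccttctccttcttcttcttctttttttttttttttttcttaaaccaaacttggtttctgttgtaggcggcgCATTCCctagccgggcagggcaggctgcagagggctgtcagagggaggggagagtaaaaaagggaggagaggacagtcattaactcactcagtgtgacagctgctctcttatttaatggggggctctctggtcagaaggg
Tnfsf14: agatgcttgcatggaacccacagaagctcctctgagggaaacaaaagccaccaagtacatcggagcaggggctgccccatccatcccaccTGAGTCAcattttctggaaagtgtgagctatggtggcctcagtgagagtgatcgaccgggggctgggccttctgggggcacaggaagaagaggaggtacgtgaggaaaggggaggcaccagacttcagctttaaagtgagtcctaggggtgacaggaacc

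Among the receptors, the death domain receptor gene Tnfrsf21 and the TWEAK receptor gene Tnfrsf12a fell. Tnfrsf26, Tnfrsf11a, Tnfrsf22, Tnfrsf23, Tnfrsf1b and Tnfrsf1a rose. Tnfrsf9 and Tnfrsf10b did not pass. Thus 8 of the 10 tested receptor genes changed, 6 higher and 2 lower, out of 20 in all. Among all tested genes the share was 64.5%, with 30.6% higher and 33.9% lower. The 10 that were not tested stood below 1 CPM in both groups. A gene read in only 1 group passes the filter through that group, so these counts say nothing of how often the family changes.

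Tnfrsf21 encodes DR6, a death domain receptor. It was the most read receptor gene of the controls, with 272, 236 and 238 CPM. The TXNIP libraries held 1 read in all, in replicate 1. The ratio of pooled counts was 7476, with an exact 95% interval of 1341 to 295300, and the edgeR adjusted p was 3.24e-11. Tnfrsf12a, which encodes Fn14, had 83.2, 136 and 133 CPM among the controls and 4.24, 3.39 and 4.83 CPM in the TXNIP libraries. Its controls were spread, replicate 1 being the lowest, but stood far above every TXNIP library. The log2 fold change was -4.75 ± 0.25 (SE, edgeR adjusted p = 6.11e-09). Thus reads counted for the TWEAK gene and for its receptor gene were both lower in the TXNIP libraries, by 2.50-fold and 28.3-fold in mean CPM. For Tnfsf12, control replicate 1 raised the control mean, and the sharing of reads with Tnfsfm13 is uncertain.

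Tnfrsf11a, the RANK gene, had 6.50, 5.03 and 4.37 CPM among the controls and 46.4, 52.7 and 44.1 CPM in the TXNIP libraries. Libraries agreed closely within each group, and the mean was 9.01-fold higher (log2 fold change 3.26 ± 0.21 SE, edgeR adjusted p = 3.87e-08). RANK's ligand gene Tnfsf11 and its soluble decoy gene Tnfrsf11b (osteoprotegerin) had no read in any library. A count of 0 out of 38012092 control counts and 30510815 TXNIP counts allows a level of up to 0.0789 and 0.0983 CPM.

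The promoters of the 3 receptor genes with the changes just given are shown in the same way. Tnfrsf21 (chr17:43016305-43016554, plus strand) and Tnfrsf12a (chr17:23677450-23677699, minus strand) held no match to any of the 4 motifs. Tnfrsf11a (chr1:105780473-105780672, plus strand) held 1 match to the TEAD motif, starting at -160. Its last 50 bases before the start are left out because they lie within the annotated span of the gene. The 250 bases before the start held 31 CG pairs in Tnfrsf11a, 15 in Tnfrsf12a and 12 in Tnfrsf21, against a median of 6.0 over all windows. For the ligands they held 3 in Tnfsf15 and 4 in Tnfsf14.
Tnfrsf21: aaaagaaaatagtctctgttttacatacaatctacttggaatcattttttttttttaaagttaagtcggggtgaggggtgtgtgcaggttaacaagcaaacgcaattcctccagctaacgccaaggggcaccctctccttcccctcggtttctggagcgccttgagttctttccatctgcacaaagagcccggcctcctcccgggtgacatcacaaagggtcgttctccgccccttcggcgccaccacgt
Tnfrsf12a: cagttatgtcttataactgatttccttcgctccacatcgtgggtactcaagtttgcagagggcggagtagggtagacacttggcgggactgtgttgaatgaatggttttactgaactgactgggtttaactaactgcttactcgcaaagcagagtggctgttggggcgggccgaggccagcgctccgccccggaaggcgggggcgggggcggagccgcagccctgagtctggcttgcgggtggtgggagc
Tnfrsf11a: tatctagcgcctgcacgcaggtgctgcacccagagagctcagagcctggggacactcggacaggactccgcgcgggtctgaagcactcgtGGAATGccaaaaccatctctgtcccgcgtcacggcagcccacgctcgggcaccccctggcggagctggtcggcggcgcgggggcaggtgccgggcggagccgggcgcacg

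Tnfrsf26, Tnfrsf22 and Tnfrsf23 are neighbours on the minus strand of chromosome 7, from 143607685 to 143686436 (GRCm38.p6), with gaps of 7.0 and 16.1 kb. Tnfrsf22 and Tnfrsf23 encode decoy receptors for TRAIL without a death domain. All 3 genes rose. Tnfrsf26 had 0.570, 0.496 and 1.26 CPM in the controls, or 5, 7 and 19 reads, and 59.6, 47.7 and 61.1 CPM in the TXNIP libraries. Its log2 fold change was 6.17 ± 0.30 (SE, edgeR adjusted p = 3.58e-09), and 6.78 without control replicate 3. Tnfrsf22 stood at 2.74, 4.74 and 5.03 CPM and then at 14.9, 23.5 and 25.4 CPM (log2 fold change 2.39 ± 0.30 SE, edgeR adjusted p = 2.12e-05). Tnfrsf23 stood at 13.7, 23.5 and 24.6 CPM and then at 43.3, 96.0 and 87.1 CPM (log2 fold change 1.93 ± 0.30 SE, edgeR adjusted p = 2.09e-04). In both of these, replicate 1 was the lowest library of its group, and the groups did not overlap. The transcripts of Tnfrsf22 and Tnfrsf23 share sequence. Of 4029 words of 75 bases in Tnfrsf23, 527 also occur in Tnfrsf22, and in the last 500 bases the share was 0 to 46.7%, depending on the transcript. In Tnfrsf22, 870 of 4179 such words occur in transcripts of 18 other genes, Tnfrsf23 among them. The split of reads between these paralogs, and between Tnfrsf22 and the other genes, is uncertain. No such word of Tnfrsf26 occurs in another gene's transcripts.

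The receptor genes of TNF itself rose by little. Tnfrsf1a encodes TNFR1, which bears a death domain and is made by most cells. It had 80.3, 58.2 and 62.8 CPM among the controls and 77.7, 102 and 93.1 CPM in the TXNIP libraries. Tnfrsf1b encodes TNFR2, which recruits TRAF2 and is found on leukocytes and other cells. It had 65.5, 36.7 and 44.3 CPM and then 64.4, 75.4 and 69.4 CPM. For both genes control replicate 1 lay above TXNIP replicate 1, and the groups overlapped. The log2 fold changes were 0.52 ± 0.16 for Tnfrsf1a and 0.59 ± 0.19 for Tnfrsf1b (SE, edgeR adjusted p = 0.0121 and 0.0168). Both calls were lost without control replicate 2 (adjusted p = 0.0634 and 0.0795), control replicate 3 (0.0501 and 0.0616) or TXNIP replicate 2 (0.0519 and 0.0533).

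Tnfrsf10b, the gene of the TRAIL death receptor DR5, had 24.3, 18.8 and 17.9 CPM among the controls and 17.4, 13.9 and 12.1 CPM in the TXNIP libraries. Tnfrsf9, which encodes CD137, had 16.8, 14.7 and 13.2 CPM and then 12.0, 9.43 and 9.39 CPM. In each gene every control stood above every TXNIP library, as the groups stood apart in 70.5% of all tested genes. Neither difference passed, with log2 fold changes of -0.42 ± 0.22 and -0.46 ± 0.23 (SE, edgeR adjusted p = 0.117 and 0.101). Without TXNIP replicate 1, Tnfrsf10b passed narrowly (-0.57, adjusted p = 0.0495). Of 5445 words of 75 bases in Tnfrsf10b, 135 also occur in transcripts of 49 other genes. In the last 500 bases the share was 0 to 12.9%, depending on the transcript. Tnfrsf9 and its ligand gene Tnfsf9 thus had values on opposite sides, the ligand higher and the receptor not shown to differ.

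The remaining 10 receptor genes had few reads or none. Tnfrsf14 (HVEM), Tnfrsf17 (BCMA), Tnfrsf25 (DR3), Tnfrsf8 (CD30) and Tnfrsf11b were without a read throughout. Of the BAFF and APRIL receptors, Tnfrsf13b (TACI) had no control read and 13, 5 and 4 reads in the TXNIP libraries, at least 9.8-fold higher. It was not tested after the filter and passed with no filter (edgeR adjusted p = 0.0124). Tnfrsf13c (BAFF receptor) had 2 reads in control replicate 2 and 5 in TXNIP replicate 3. Tnfrsf4 (OX40) had 8, 4 and 6 reads in the controls and 1, 5 and 0 in the TXNIP libraries. Tnfrsf18 (GITR) had 1 read in each TXNIP library, and Tnfrsf19 (TROY) had 2 reads, both in control replicate 1.

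**Figure D2:**
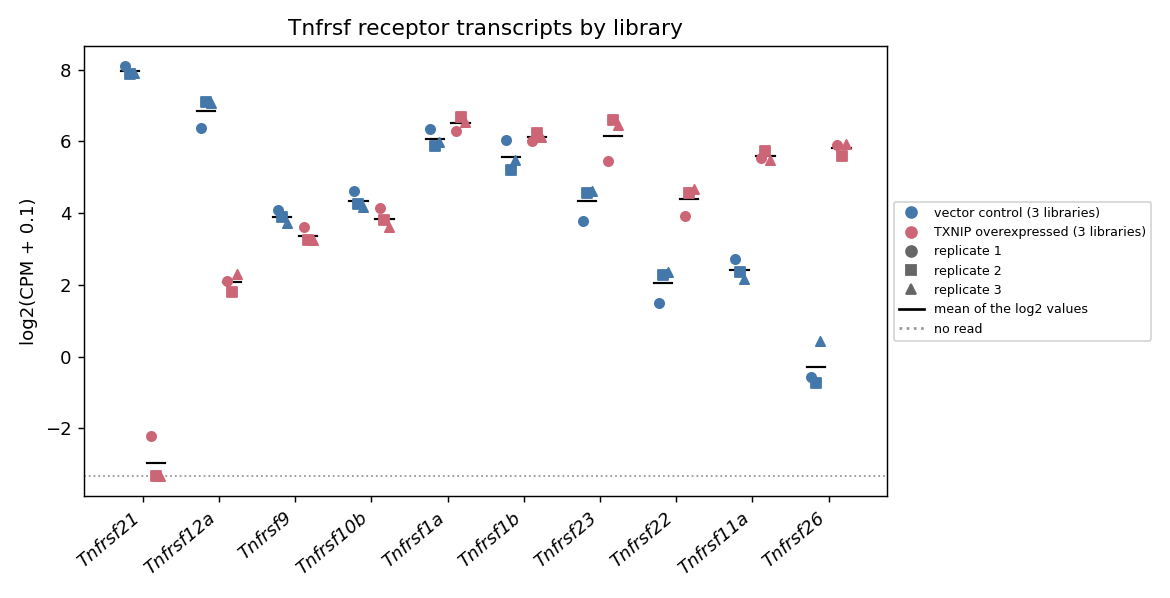
Receptor transcripts in each library, as log2(CPM + 0.1), for the 10 Tnfrsf genes of at least 1 CPM in either group, ordered by fold change; points are libraries with a shape per replicate, bars the mean of the log2 values, and the dotted line marks no read. Tnfrsf21 falls to the line except in TXNIP replicate 1 (0.115 CPM). Tnfrsf1a and Tnfrsf1b overlap between groups, and Tnfrsf26 and Tnfrsf11a are higher in all 3 TXNIP libraries.

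**Figure D3:**
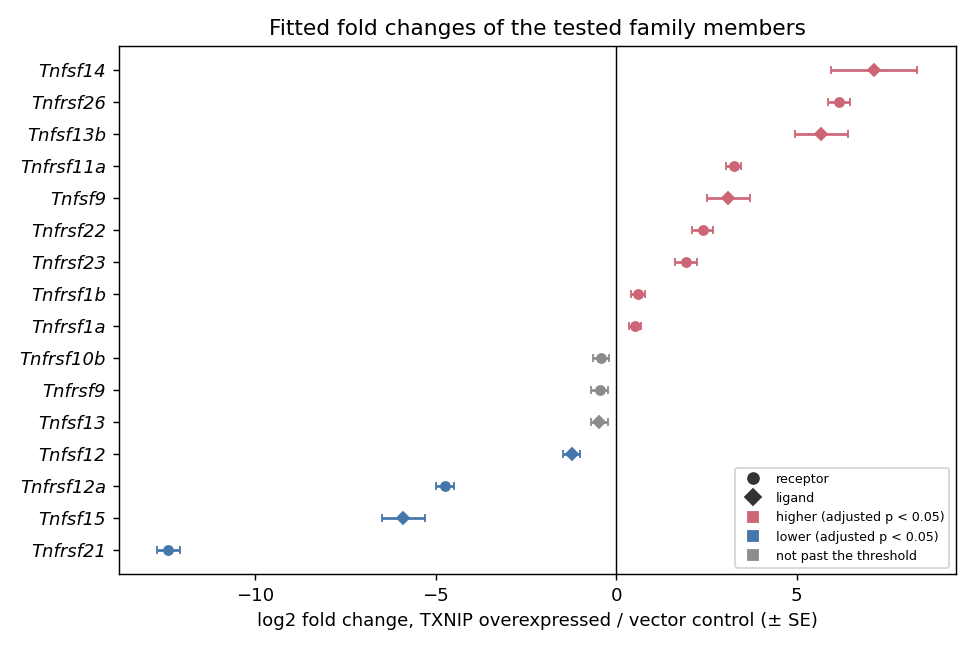
Fitted log2 fold changes of the 16 tested members with their SE, TXNIP over control, with receptors as circles and ligands as diamonds. Colours give the edgeR call, and the values of Tnfsf14 (no control read) and Tnfrsf21 (1 TXNIP read) depend on the prior count and are not bounds.

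The make-up of the Tnfrsf reads differed between the groups. In the controls, Tnfrsf21 took 45.3% ± 2.37 and Tnfrsf12a 21.5% ± 5.94 of all Tnfrsf reads (SD, n = 3). In the TXNIP libraries they took 0.0112% ± 0.0194 and 1.08% ± 0.241. There the largest shares were those of Tnfrsf1a (23.2% ± 0.753), Tnfrsf23 (18.9% ± 5.40), Tnfrsf1b (17.9% ± 0.907), Tnfrsf26 (14.55% ± 3.14) and Tnfrsf11a (12.3% ± 1.38). The order of Tnfrsf23, Tnfrsf1b and Tnfrsf26 is within their spread. In the controls the shares of Tnfrsf26 and Tnfrsf11a were 0.141% ± 0.0776 and 0.963% ± 0.174. The summed level of the 20 Tnfrsf genes was 548.7 ± 16.1 CPM among the controls and 391.5 ± 44.0 CPM in the TXNIP libraries. The 8 other receptor genes summed to 218 to 280 CPM and 110 to 145 CPM. That of the 11 ligand genes was 110.6 ± 31.9 and 113.1 ± 48.1 CPM, a difference smaller than the spread. This sum leaves out the 7 listed ligand genes with other symbols, among them Tnf and Ltb. Those summed to 7.08 to 9.59 CPM in the controls and 570 to 789 CPM in the TXNIP libraries.

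**Figure D4:**
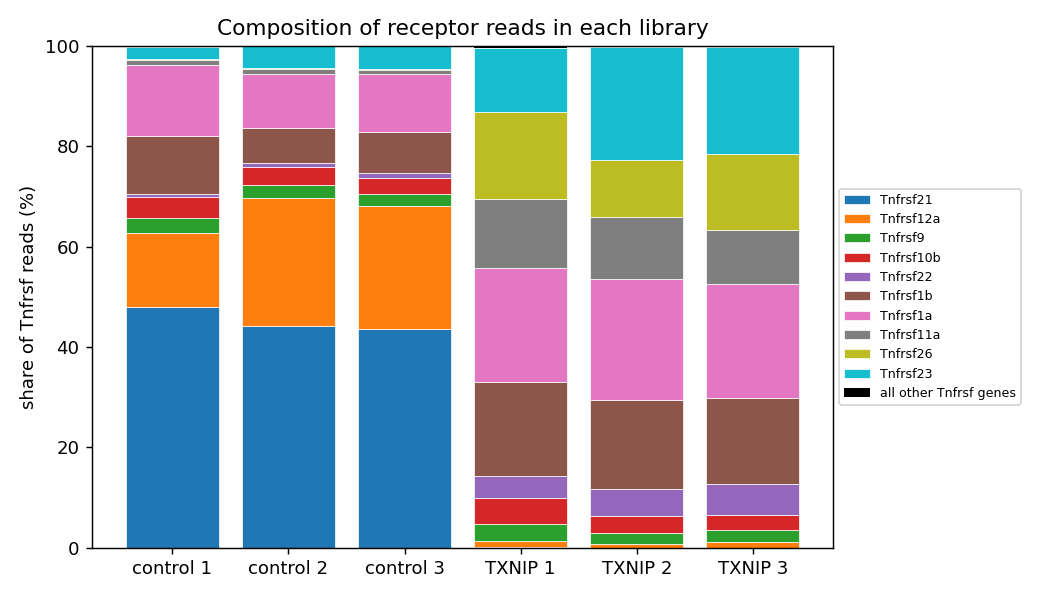
Share of each receptor gene in the Tnfrsf reads of each library (percent, bars stacked to 100), with genes under 2% in both groups pooled in black. Tnfrsf21 and Tnfrsf12a fill most of each control bar (45.3% and 21.5% on average) and almost none of the TXNIP bars.

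Family members with other symbols were read from a list. Of its 15 genes, 8 were tested, of which 5 rose, 2 fell and 1 did not pass. The share changed among all tested genes was 64.5%, with 30.6% higher and 33.9% lower. Here too, a gene read in only 1 group passes the filter through that group, so the counts do not say how often such genes change. Tnf, the founding ligand, had no control read and 421, 602 and 681 CPM in the TXNIP libraries, at least 7198-fold higher (edgeR adjusted p = 8.45e-10). Ltb, the lymphotoxin beta gene, had 2.05, 1.63 and 1.72 CPM and then 148, 90.5 and 108 CPM (log2 fold change 6.08 ± 0.25 SE, edgeR adjusted p = 6.97e-10). Lta, which lies 1.2 kb from Tnf on chromosome 17, stayed below 1 CPM on average in both groups (0.428 ± 0.430 and 0.521 ± 0.746 CPM, SD, n = 3) and was not tested. Eda, the ectodysplasin ligand gene, had 5.59, 5.03 and 7.01 CPM as control levels and no TXNIP read, at least 59.75-fold lower. Fasl and Cd40lg had no read anywhere. Counted over all ligand genes, Tnf took 70.9% ± 3.27 and Ltb 15.3% ± 7.10 of ligand reads in the TXNIP libraries. In the controls the largest shares were those of Tnfsf12 (40.2% ± 2.50), Tnfsf13 (24.5% ± 2.70) and Tnfsf15 (20.98% ± 2.999).

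Ltbr, the receptor of the lymphotoxin beta heterotrimer and of LIGHT, had 270, 213 and 212 CPM among the controls and 126, 94.2 and 85.1 CPM in the TXNIP libraries. It fell (log2 fold change -1.12 ± 0.17 SE, edgeR adjusted p = 8.33e-05), while the ligand genes Ltb and Tnfsf14 rose. The other lymphotoxin gene, Lta, had few reads and was not tested. Ltbr lies 35.8 kb from Tnfrsf1a, which rose. Cd40, a receptor gene of antigen-presenting cells, went from 4.22, 0.496 and 1.12 CPM to 7.79, 9.33 and 9.31 CPM. Its log2 fold change was 2.34 ± 0.59 (SE, edgeR adjusted p = 0.00427), and 3.47 without control replicate 1. Relt, a TNF receptor of lymphoid tissue, went from 1.03, 1.98 and 2.45 CPM to 7.68, 7.64 and 8.05 CPM (log2 fold change 2.12 ± 0.40 SE, edgeR adjusted p = 5.15e-04). Eda2r, a receptor for an ectodysplasin form, had 4 control reads, all in replicate 1, and 2.30 ± 0.314 CPM in the TXNIP libraries (edgeR adjusted p = 0.00189). Its log2 fold change of 4.29 became 7.82 without control replicate 1, 3.63 without control replicate 2 and 3.59 without control replicate 3. Fas, a death receptor gene, stood at 3.12 ± 1.24 and 3.59 ± 1.51 CPM (SD, n = 3) and did not pass (edgeR adjusted p = 0.613).

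Set out by position, the members lay on 11 chromosomes, with 9 on chromosome 4. Several members that were read lay near members with few reads or none. Tnfsf15 was read in the controls while Tnfsf8, 86.1 kb away, had none. Tnfrsf1b was read in all libraries while Tnfrsf8, 20.3 kb away, had no read. On chromosome 17, Tnfsf9 and Tnfsf14 rose, and Cd70 between them had 4 reads, all in TXNIP replicate 2. On chromosome 1, Tnfsf4, Tnfsf18 and Fasl stood within 1 stretch with at most 3 reads each.

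Below the receptors, 62 listed signalling genes were all tested, of which 20 rose, 19 fell and 23 did not pass. Over all tested genes 64.5% changed, 30.6% higher and 33.9% lower, and the share among the listed genes was close to this background. Their median log2 fold change was -0.005, beside -0.038 over all tested genes. Of 10 TRAF adaptors and partners, 3 rose, 3 fell and 4 did not pass, with a median log2 fold change of 0.02. Traf1, an NF-kappaB-induced adaptor of TNFR2, rose from 3.65 ± 0.824 to 39.2 ± 9.10 CPM (SD, n = 3). Traf4, a TRAF of epithelial tissues, fell from 89.1 ± 5.22 to 7.46 ± 1.70 CPM. Traf7 fell from 113 ± 6.13 to 48.8 ± 9.22 CPM. Tifa, a TRAF6 partner, fell from 20.4 ± 4.62 to 2.89 ± 1.87 CPM, with a log2 fold change of -2.72, or -3.37 without TXNIP replicate 3. The adjusted p in edgeR was 5.58e-05 or less for these 4 genes.

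Of 15 genes of the death domain and ubiquitin complex, 6 rose, 4 fell and 5 did not pass, with log2 fold changes from -1.08 to 1.02 and a median of -0.05. Over all tested genes 30.6% rose and 33.9% fell, and no list was tested as a set. Cyld, a deubiquitinase that restrains NF-kappaB, fell from 128 ± 0.763 to 59.9 ± 1.36 CPM (log2 fold change -1.03 ± 0.12 SE). Otulin, which removes linear ubiquitin chains, rose from 47.0 ± 3.71 to 73.8 ± 5.72 CPM. Xiap, an inhibitor of caspases, and Tnip1, a partner of A20, had log2 fold changes of 0.63 ± 0.14 and 0.64 ± 0.15 (SE). The largest of the 4 edgeR adjusted p-values was 0.0021. Of 15 death effectors, 5 rose, 2 fell and 8 did not pass, with a median log2 fold change of 0.37. Ripk3, the kinase of necroptosis, had no control read and 42.3, 39.2 and 45.4 CPM in the TXNIP libraries, at least 535.8-fold higher. Its substrate gene Mlkl did not pass (11.3 ± 1.45 and 13.8 ± 2.94 CPM, SD, n = 3, edgeR adjusted p = 0.198). Cflar, which encodes the caspase-8 inhibitor FLIP, rose from 26.1 ± 1.32 to 90.9 ± 2.59 CPM. Casp9 rose from 14.2 ± 0.611 to 46.9 ± 3.43 CPM.

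Of 16 genes of the IKK and NF-kappaB route, 4 rose, 8 fell and 4 did not pass, with a median log2 fold change of -0.37. Beside this, 30.6% of all tested genes rose and 33.9% fell, and the list was not tested as a set. The subunit genes Nfkb2 (264.5 ± 7.60 to 68.2 ± 8.81 CPM) and Rela (162 ± 5.96 to 52.9 ± 2.74 CPM) fell. The inhibitor genes moved apart. Nfkbia rose from 417, 331 and 331 CPM to 1379, 1277 and 1165 CPM, while Nfkbie fell from 65.4 ± 5.25 to 23.6 ± 3.20 CPM. Of 6 sheddases and their regulators, 2 rose, 2 fell and 2 did not pass, with a median of -0.08. Adam17, the protease that releases TNF and its receptors, rose from 111, 91.4 and 84.8 CPM to 539, 446 and 465 CPM (log2 fold change 2.41 ± 0.14 SE, edgeR adjusted p = 1.95e-08). Of its rhomboid-like partners, Rhbdf2 rose from 11.4 ± 1.26 to 21.9 ± 3.32 CPM and Rhbdf1 fell from 31.6 ± 3.30 to 7.95 ± 2.56 CPM. Timp3, an inhibitor of ADAM17, had 110, 34.9 and 47.0 CPM among the controls and 0.229, 0.471 and 0.447 CPM in the TXNIP libraries. Its log2 fold change of -7.23 ± 0.57 (SE, edgeR adjusted p = 9.55e-07) became -6.61 without control replicate 1, its highest control.

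**Figure D5:**
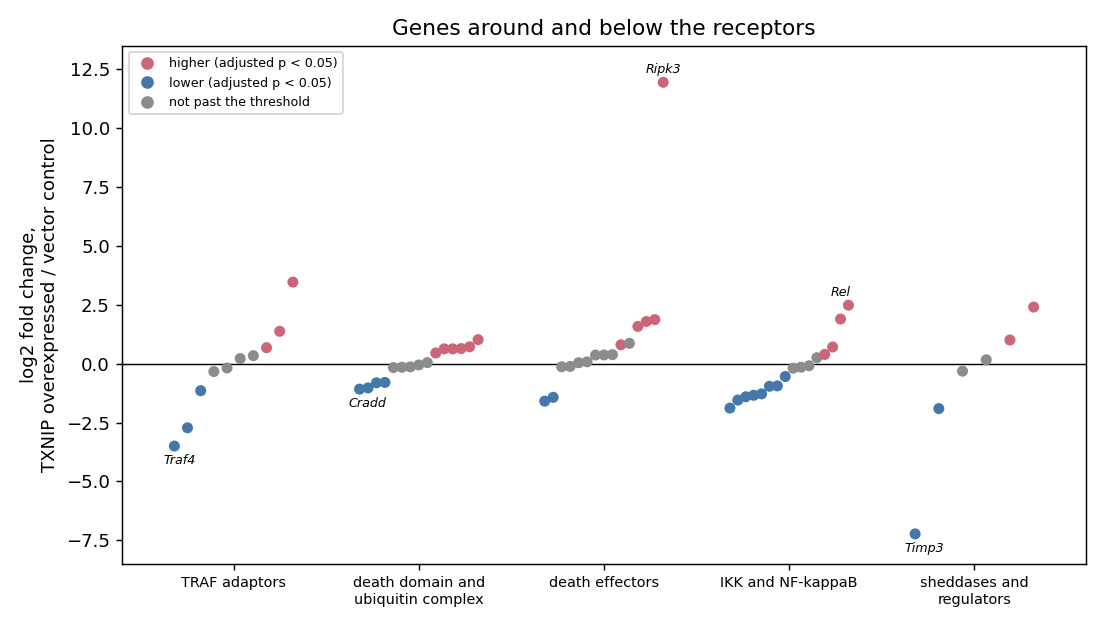
Fitted log2 fold changes, TXNIP over control, of the 62 listed adaptor, death, NF-kappaB and sheddase genes, 1 point per gene, sorted within each list and coloured by the edgeR call; the gene farthest from 0 in each list is named. Each list holds genes on both sides of 0, and Ripk3 (no control read, so its fitted value is no bound) and Timp3 lie farthest out.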

How the data were processed

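RNA from 6 libraries was read from the 3' end (Lexogen QuantSeq kit, per the labels' protocols) with single-end reads of a NextSeq sequencer, per the series' design text. The authors deposited raw counts per gene symbol, as whole numbers. Bowtie2, bedtools and the build mm10 are listed in the submitters' processing notes, without roles. The sources used here do not give versions, settings, annotation or use of strand. Each file holds 23282 entries, and no member stood on more than 1. Rn45s, a ribosomal RNA entry, held 7.85% to 9.63% of the counts and was kept.

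Genes passing edgeR's filterByExpr (12088) were scaled by TMM factors (0.965 to 1.04) and tested with edgeR 4.0.16's quasi-likelihood test, robust, with the group as the only term, two-sided, with Benjamini-Hochberg adjustment over all tested genes at 0.05 (R 4.3.3). Fold changes are TXNIP minus control. Levels and folds of means are CPM over the library total, so they differ slightly from the fitted values. A group at 0 was given a floor of 3 reads over the group. With 1 to 3 reads, pooled counts were compared with an exact 95% interval. The script was tested on simulated data, with a spread that was set and not fitted to these libraries. There it recovered 2% of 1.5-fold changes, 76% of 2-fold changes and 100% of 4-fold and 8-fold changes. A difference that did not pass is thus not shown to be absent.

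The text gives every member of at least 1 CPM in either group with its values and the others by reads. It also gives the 4 genes with the smallest adjusted p of each other list, Tnf, Lta, Ltb, Fasl, Fas, Ltbr, Cd40 and Txnip. Mlkl, Cd40lg, Cd70 and the marker examples were added after values were seen. Some items that the rule names are not reported here. Members and lists were chosen with earlier results of these data known. Positions and promoters are from RefSeq GRCm38.p6 (24 of 31 members had a promoter window), and transcripts from GENCODE M21. Other fits used DESeq2 1.42.0, limma-voom 3.58.1, RLE or no factors, other filters, a replicate block, each library left out, Rn45s removed and an adjusted p of 0.01. Plots were drawn with matplotlib 3.10.9.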

Additional observations from a re-analysis of the deposited data

How the results depend on the processing

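Over 15 other settings, the 16 tested members gave 239 fitted values. Of these, 229 kept the direction and the side of the threshold, 8 no longer passed, 2 newly passed and 0 reversed. The 8 were Tnfrsf1a and Tnfrsf1b without the 3 libraries named beside them and at an adjusted p of 0.01. Leaving out 1 library in turn gave 4 to 6 receptors higher and 2 to 3 lower, 3 ligands higher and 2 to 3 lower, 34 to 40 signalling genes changed, and 7201 to 7870 genes changed in all. Tnfsf14 could not be fitted with a filter of 5 CPM in 3 libraries. With no filter, 15944 genes were tested and Tnfrsf13b was called besides. Fas had a log2 fold change of 0.29, which was -0.05 without TXNIP overexpressed replicate 3 and ranged from -0.05 to 0.57 over the libraries left out; it passed in none of these fits. TMM-effective library sizes moved the summed levels by less than the spread (535.9 and 401.3 CPM for receptors, 107.8 and 115.6 CPM for ligands). The labels give both groups the replicate numbers 1 to 3. Deviations from the group means of same-numbered libraries correlated at 0.098, 0.042 and 0.052 across genes, none above the 0.1 set for pairing, and control replicate 2 correlated slightly better with TXNIP replicate 3 (0.044). With the replicate number as a block, 5 ligands, 8 receptors, 38 signalling genes and 7767 genes in all changed, and no member's call moved. Members under 1 CPM in both groups were not tested after the filter.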
